A study of Homo sapiens with 6 samples.

Results

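The genes described here carry cholesterol through to active sex steroids: STAR, CYP11A1, CYP17A1, CYP19A1, HSD3B1, HSD3B2, HSD17B1, HSD17B4, SRD5A1 and SRD5A3. They were chosen by name, from the platform annotation, and not by a rule on their values, though earlier results of these data were known. Of the 10 listed genes, 9 had at least 1 probe set that named that gene alone, 21 probe sets in all, out of 19775 such genes and 54613 probe sets tested on the array. SRD5A3 was not analysed here. The question put to the data was which steps of steroid production and conversion are expressed at all in these cells, and whether their transcripts differ when VAMP7, a SNARE protein of late endosomes and lysosomes, is depleted.

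NTERA2/D1 is an established human cell line from a testicular teratocarcinoma, with the features of embryonal carcinoma. All arrays came from this line, grown without phenol red in medium with 10% fetal bovine serum and plated at 70% confluency. Control cells received a nonspecific scrambled siRNA and knockdown cells an siRNA against human VAMP7, 24 h after plating and for 72 h, with 3 arrays in each group. The titles call the arrays of each group biological replicates 1 to 3 and do not say what was separate between them, so the p-values rest on the spread between these samples. The descriptions of all 3 knockdown samples say replicate 1, and the numbers used here are those of the titles. An siRNA lowers its target transiently, and only this 1 time point and 1 line were measured.

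Steroid hormones are made from cholesterol in a fixed order of steps. STAR moves cholesterol into mitochondria, where CYP11A1 cleaves its side chain to give pregnenolone, the committed step. HSD3B1 and HSD3B2 turn pregnenolone and related steroids into their active keto forms, CYP17A1 leads on to androgens, and CYP19A1, aromatase, turns androgens into oestrogens. Enzymes of the HSD17B family interconvert weak and potent sex steroids, and the SRD5A reductases turn testosterone into dihydrotestosterone. Different parts of the set are known from Leydig cells, ovary, adrenal cortex and placenta, whereas HSD17B4 is also a peroxisomal enzyme of fatty acid oxidation in most cells and SRD5A3 also acts in dolichol synthesis for protein glycosylation.

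The labels held in the check of the targeted gene. VAMP7 read 2487, 2617 and 2741 intensity units on the control arrays and 136.8, 175.4 and 148.6 on the knockdown arrays, a log2 fold change of -3.71 (SE 0.11; adjusted p = 0.000362 in limma) with the offset of 50 added before log2 and -4.09 with an offset of 1. The knockdown readings were near the reference defined below, and that of knockdown replicate 1 was under it, so the size of this change depends on the offset. Of 16 measured markers of embryonal carcinoma, 15 read above the reference level defined below on all arrays, among them SOX2, NANOG and LIN28A, and ZFP42 did not. Knockdown replicate 1 differed most from the rest: it loaded 0.90 on principal component 1, and the other 5 arrays loaded -0.32 to -0.07, so results are also given without it. Medians of the arrays ran from 58.85 to 67.54 intensity units.

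No detection calls were used, so a floor was set from genes known from differentiated tissues such as retina, muscle, pancreas and skin. This silent reference held 51 measured genes with 70 probe sets, whose median lay between 10.3 and 16.7 intensity units on the 6 arrays. A gene was counted as above the reference if 1 of its probe sets read, on all 6 arrays, above the 95th percentile of the silent probe sets on the same array, which lay between 90.2 and 174.9. Of 21 measured genes that nearly all cells express, 21 met this, and 51.8% of all genes did. By construction, 4 of the 70 silent probe sets lie above a 95th percentile on each array. On all 6 arrays these were 2 of CEL, a pancreatic lipase, 1 of MYH6, a heart myosin, and 1 of CD79A, a B cell gene. That of CD79A was the lowest of the 4, at 95.5 to 246.6, so its reading helped to set the level. The 90th percentile of the silent probe sets lay between 52.4 and 70.8. Probe sets differ in affinity, so a level below the reference does not show that a transcript is absent, and levels of different genes were not ranked.

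STAR, HSD17B1, HSD17B4 and SRD5A1 were above the reference, and CYP11A1, CYP17A1, CYP19A1, HSD3B1 and HSD3B2 were not. The first 4 are 44.4% of the 9 measured genes, against the 51.8% of all genes, so the share itself was close to the background. By step, the cholesterol carrier, 2 HSD17B enzymes and 1 reductase were above the reference. HSD17B1 and HSD17B4 were each above it by 1 of their 2 probe sets. The enzymes of side-chain cleavage, the keto step, androgen formation and aromatisation were below it on each of the 6 arrays. Among probe sets, 6 of 21 were above, where 34.4% of all probe sets were. None of the other 15 rose above the reference on any single array. They read from 0.652 to 72.6 intensity units with a median of 8.26, below the medians of the silent probe sets.

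**Figure D1:**
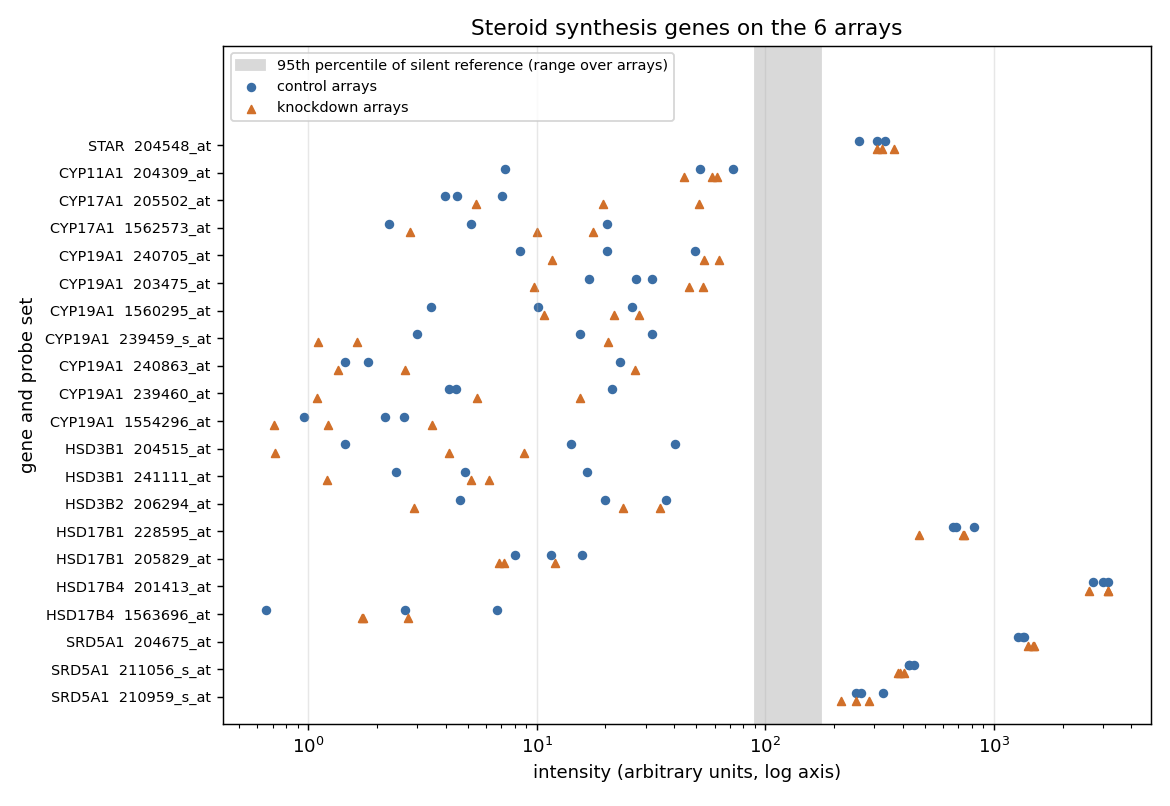
Intensity of the 21 probe sets of the steroid synthesis genes on the 3 control (circles) and 3 knockdown (triangles) arrays, on a log axis; the grey band spans the 95th percentile of the silent reference over the arrays (90.2 to 174.9 intensity units). Of the 21, 6 probe sets of STAR, HSD17B1, HSD17B4 and SRD5A1 lie to the right of the band, and the other 15 lie to its left on all arrays.

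RefSeq promoters (GRCh38.p14) were matched for 7 of the 9 measured genes, and not for STAR and HSD17B1. The 250 bases before the start are shown for HSD17B4 and SRD5A1, above the reference, and for 3 enzymes of the opening steps below it, because they show how differently CpG dinucleotides, where a cytosine stands before a guanine, are spaced in them. Capitals mark each CpG. HSD17B4 lies at chr5:119452247-119452496 on the plus strand, SRD5A1 at chr5:6633190-6633439 on the plus strand, CYP11A1 at chr15:74367647-74367896 on the minus strand, CYP17A1 at chr10:102837414-102837663 on the minus strand and HSD3B1, at the first of its listed starts, at chr1:119506953-119507202 on the plus strand.
HSD17B4: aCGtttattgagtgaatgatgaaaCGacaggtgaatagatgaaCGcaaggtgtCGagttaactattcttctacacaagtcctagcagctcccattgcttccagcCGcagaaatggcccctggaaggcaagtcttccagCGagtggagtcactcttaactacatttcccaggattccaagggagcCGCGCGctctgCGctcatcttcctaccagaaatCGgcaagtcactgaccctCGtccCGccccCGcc
SRD5A1: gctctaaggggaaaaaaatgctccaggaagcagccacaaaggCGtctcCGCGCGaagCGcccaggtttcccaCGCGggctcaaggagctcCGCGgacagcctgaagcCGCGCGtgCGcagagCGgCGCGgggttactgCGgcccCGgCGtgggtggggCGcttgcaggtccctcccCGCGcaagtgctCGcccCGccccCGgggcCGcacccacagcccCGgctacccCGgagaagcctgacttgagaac
CYP11A1: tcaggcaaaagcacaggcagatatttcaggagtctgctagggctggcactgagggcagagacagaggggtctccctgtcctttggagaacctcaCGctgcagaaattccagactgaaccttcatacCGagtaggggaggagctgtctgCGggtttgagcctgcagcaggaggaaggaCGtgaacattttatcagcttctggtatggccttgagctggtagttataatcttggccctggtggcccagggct
CYP17A1: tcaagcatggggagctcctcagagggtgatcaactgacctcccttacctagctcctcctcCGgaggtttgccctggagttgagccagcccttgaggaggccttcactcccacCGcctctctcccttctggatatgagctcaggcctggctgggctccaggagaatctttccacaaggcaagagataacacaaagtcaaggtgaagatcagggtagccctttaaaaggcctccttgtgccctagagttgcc
HSD3B1: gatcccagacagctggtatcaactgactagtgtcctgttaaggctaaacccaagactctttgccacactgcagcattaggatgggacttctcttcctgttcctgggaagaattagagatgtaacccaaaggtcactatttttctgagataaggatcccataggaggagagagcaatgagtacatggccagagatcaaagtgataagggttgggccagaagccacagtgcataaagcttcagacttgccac

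SRD5A1 had 28 CpGs in these 250 bases and HSD17B4 had 14. Set against the number that base composition gives, the CpG ratio was 0.90 for SRD5A1 and 0.82 for HSD17B4. CYP11A1 had 4 CpGs (ratio 0.22), CYP17A1 had 2 (0.10), HSD3B2 had 1 (0.10) and HSD3B1 had 0 at both of its listed starts. The 7 listed starts of CYP19A1, an enzyme known for its many tissue-specific promoters, ran from 0.00 to 0.49. So each listed start of these 5 genes below the reference had a lower ratio than those of HSD17B4 and SRD5A1. Over all genes, the median ratio was 0.81 over 12616 starts of genes above the reference and 0.43 over 8874 starts of measured genes that were not above it. Ratios of at least 0.6 were found for 76.4% and 39.2% of these starts. These shares are descriptions, and no cause was tested.

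**Figure D2:**
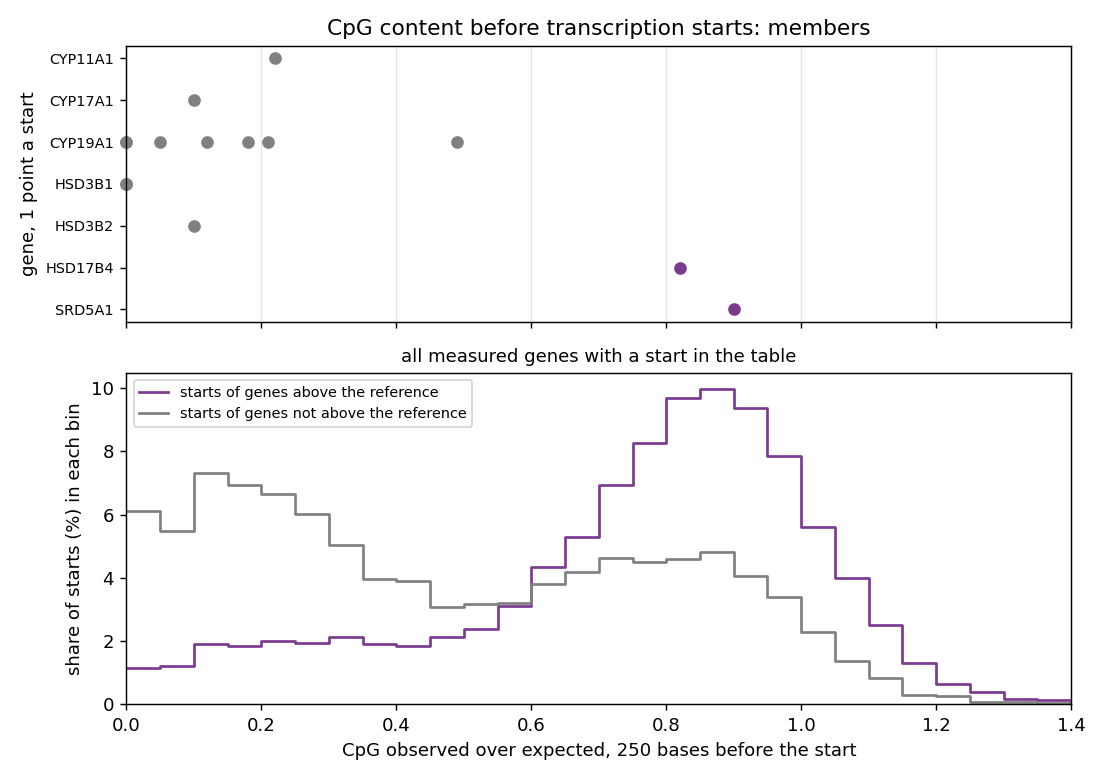
CpG observed over expected in the 250 bases before each listed transcription start: above, 1 point a start of the 7 steroid synthesis genes (purple, above the silent reference; grey, not above); below, the share of starts in each bin for all measured genes. HSD17B4 and SRD5A1 lie at 0.82 and 0.90, and the other 5 genes at 0.49 or less.

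The letters AGGTCA, a half-site of nuclear receptors that NR5A1 (steroidogenic factor) is known to bind with added bases, were searched on both strands of the same windows. They occurred once in CYP17A1 and at 2 of the 7 CYP19A1 starts. HSD3B1 held 1 match, shared by the overlapping windows of its listed starts. The letters did not occur in CYP11A1, HSD3B2, HSD17B4 or SRD5A1. Only these exact letters were searched, so their absence does not show that a window lacks an NR5A1 site. A match was held by 12.1% of all 35116 RefSeq starts. The share was 13.1% for starts of measured genes not above the reference and 8.34% for those above it. NR5A1 itself read at most 65.0 intensity units, below the reference on all arrays.

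The carrier and the committed step differed. STAR, the mitochondrial cholesterol carrier, read 335.5, 256.0 and 308.4 intensity units on the control arrays and 366.5, 308.9 and 322.7 on the knockdown arrays. The lowest array was a control and the highest a knockdown array, and the groups overlapped. In limma the log2 fold change of STAR was 0.13 with an SE of 0.13 and a 95% interval from -0.17 to 0.43 (adjusted p = 0.886), or 0.07 without knockdown replicate 1. STAR was measured by 1 probe set, whose lowest reading was 1.66 times the reference of its array.

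CYP11A1, the side-chain cleavage enzyme, read 51.8, 72.6 and 7.29 on the control arrays and 61.7, 43.9 and 58.6 on the knockdown arrays. Control replicate 3 was far under the other 5 arrays, and all 6 were below the reference. Since both groups were below the reference, no fold change is given for it or for the other dim probe sets.

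Both enzymes of the keto step read below the reference on all arrays. HSD3B1, the placental form, read 14.1, 1.44 and 40.1 on the control arrays and 4.14, 0.714 and 8.80 on the knockdown arrays with its brighter probe set, and its other probe set stayed between 1.21 and 16.5. HSD3B2, the adrenal and gonadal form, read 4.61, 20.0 and 36.6 on the control arrays and 2.92, 23.8 and 34.8 on the knockdown arrays. The arrays of 1 group were far apart at these low readings, and the groups overlapped for all 3 probe sets.

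CYP17A1, which leads to androgens, read 7.07, 4.49 and 3.96 on the control arrays and 51.25, 5.41 and 19.6 on the knockdown arrays. It had the smallest unadjusted p of the 21 probe sets (0.0986; adjusted p = 0.796 in limma), and its highest reading came from knockdown replicate 1, the array that stood apart, still below the reference of 174.9 on that array. Its second probe set read between 2.26 and 20.3. The 7 probe sets of CYP19A1, aromatase, read between 0.711 and 62.7, and the brightest of them read 8.48, 49.4 and 20.4 on the control arrays and 53.7, 11.7 and 62.7 on the knockdown arrays. No CYP19A1 probe set kept its groups apart.

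HSD17B1, which reduces oestrone to oestradiol, was read very differently by its probe sets. The bright one read 685.8, 661.0 and 815.0 on the control arrays and 469.4, 743.0 and 736.6 on the knockdown arrays, and the other read between 6.85 and 15.8. The bright readings of knockdown replicates 2 and 3 lay within the control range, and knockdown replicate 1 lay below it. In limma its log2 fold change was -0.16 with an SE of 0.19 and a 95% interval from -0.61 to 0.29 (adjusted p = 0.909). It was 0.04 without knockdown replicate 1, so the sign rested on that array.

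HSD17B4, the peroxisomal member, had 1 probe set well above the reference, at no less than 14.96 times it on each array. It read 3165, 3003 and 2705 on the control arrays and 2616, 3157 and 3170 on the knockdown arrays. The lowest and the highest reading were both from knockdown arrays. The limma log2 fold change was 0.01 with an SE of 0.12 and a 95% interval from -0.28 to 0.30 (adjusted p = 0.995), or 0.10 without knockdown replicate 1. A second HSD17B4 probe set read between 0.652 and 6.70, so a gene well above the reference can have a probe set at the bottom of the array.

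SRD5A1, a steroid reductase, had 3 probe sets, all above the reference, whose differences had unlike signs. The brightest read 1277, 1347 and 1353 on the control arrays and 1496, 1480 and 1404 on the knockdown arrays. All 3 knockdown arrays were higher, with a log2 fold change of 0.13 (SE 0.09, 95% interval -0.09 to 0.36; adjusted p = 0.85 in limma). The middle one read 445.6, 424.0 and 426.6 on the control arrays and 389.1, 404.9 and 379.5 on the knockdown arrays. Here all 3 knockdown arrays were lower, with a log2 fold change of -0.13 (SE 0.09, 95% interval -0.35 to 0.09; adjusted p = 0.857 in limma). The dimmest read 249.9, 329.0 and 261.2 on the control arrays and 214.4, 284.0 and 249.9 on the knockdown arrays, with overlapping groups, and limma put its log2 fold change at -0.14 (adjusted p = 0.893). Without knockdown replicate 1 the values were 0.12, -0.12 and -0.05, so the opposite signs of the first and second did not rest on that array. These were the 2 of the 21 probe sets whose groups did not overlap, against 12.4% of all probe sets.

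**Figure D3:**
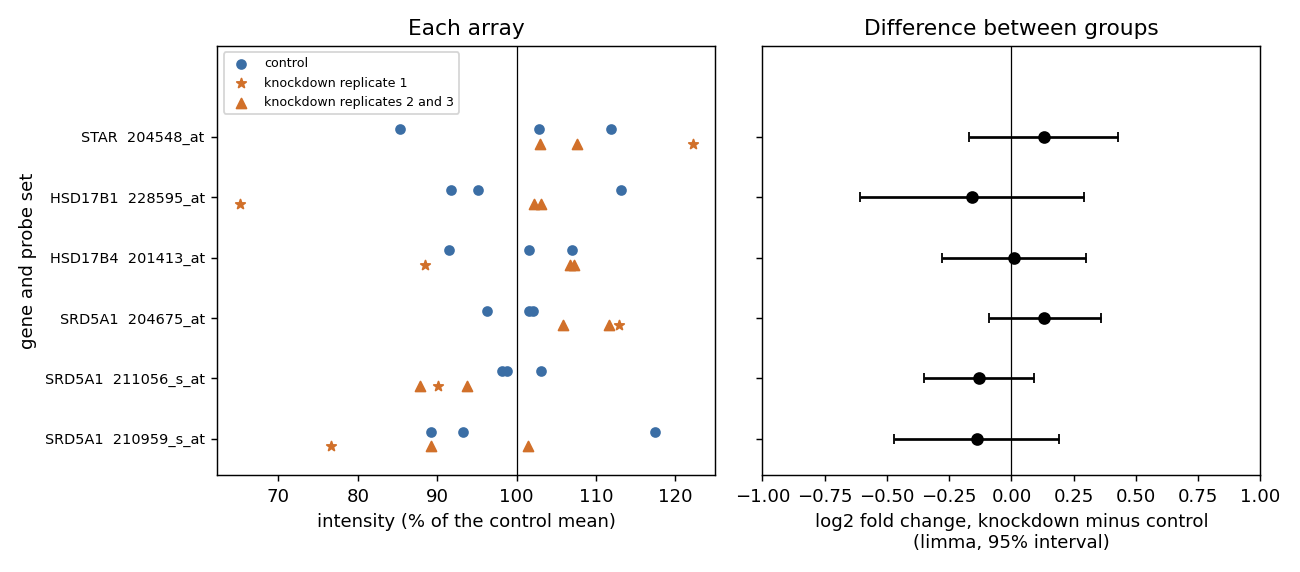
The 6 probe sets above the silent reference: left, each array's intensity as a percent of the control mean (circles control, star knockdown replicate 1, triangles knockdown replicates 2 and 3); right, the log2(intensity + 50) fold change with its 95% interval from limma. All 6 intervals cross 0, and the 3 SRD5A1 probe sets lie at 0.13, -0.13 and -0.14.

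No steroid synthesis gene passed the test between knockdown and control. In limma 0 of the 21 probe sets had an adjusted p under 0.05, where 0.00183% of all probe sets did (VAMP7 alone), and 0 had an unadjusted p under 0.05, where 6.62% of all probe sets did. Of the 21, 10 had a log2 fold change above 0 and 11 below. For the 6 bright probe sets the 95% intervals reached no further than 1.53-fold in either direction on the log2(intensity + 50) scale, which understates changes of dim genes. This bounds the difference in these arrays and does not show that the groups were alike. With 3 arrays a group, the smallest two-sided p that an exact permutation test allows is 0.1.

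Outside the 9 genes, the other enzymes that convert steroids were mixed. Of 26 measured, 9 were above the reference (34.6%), or 11 without knockdown replicate 1. Leaving out an array can only raise such counts, and the share of all genes rose from 51.8% to 53.1%. The reference was highest on that array, at 174.9. HSD17B12, which also elongates fatty acids, read between 9404 and 11030, and HSD17B10, a mitochondrial enzyme, between 6995 and 8979. HSD17B11, HSD17B7, HSD17B6, HSD17B14, CYP27A1, CYP1B1 and STS, the steroid sulfatase, were the others above it. The adrenal enzymes CYP11B1 and CYP11B2, the testicular HSD17B3, SRD5A2 and the cortisol enzyme HSD11B1 were below it on all arrays, HSD11B2 and AKR1C1 passed it on 1 array each, and CYP7B1 and HSD17B8 on 5. None of the 26 passed the test (smallest adjusted p = 0.534 in limma), and 12 lay above 0 and 14 below. HSD17B12 had a log2 fold change of -0.18 (SE 0.09; adjusted p = 0.792 in limma) and HSD17B10 one of -0.18 (SE 0.10; adjusted p = 0.816 in limma), each with 3 of 3 knockdown arrays lower. By the brightest probe set, the groups did not overlap, in either direction, for 4 of the 26 genes, against 2564 of all 19775. SULT2B1, a sulfotransferase of steroids, read 12.2, 12.6 and 21.3 on the control arrays and 50.1, 56.4 and 84.1 on the knockdown arrays, below the reference in both groups.

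All 7 measured genes listed as redox partners or cofactor suppliers of steroid enzymes were above the reference. FDXR, the reductase that feeds FDX1, and PGRMC1 were on the list and were not analysed here. Among them were FDX1, the mitochondrial ferredoxin that serves CYP11A1, at 1569 to 2088 intensity units, CYB5A, a cytochrome that aids CYP17A1, at 1847 to 2309, and POR, the reductase that serves CYP17A1 and CYP19A1, at 348.4 to 507.8. Of 14 measured genes of cholesterol uptake and delivery 10 were above it, or 11 without knockdown replicate 1. Among the 10 were VDAC1, a channel of the outer mitochondrial membrane, NPC2, which frees cholesterol from lysosomes, ACBD3, TSPO and the sterol carrier STARD4. STARD3, a late endosomal sterol protein related to STAR, passed it on 5 arrays. Neither list had a gene that passed (smallest adjusted p = 0.849 and 0.796 in limma), with CYB5R3 at 0.12 and FDX1 at -0.16 on the log2 scale. CYB5R3 was at 0.04 without knockdown replicate 1 and also without control replicate 1, and FDX1 at -0.10 without control replicate 3 or knockdown replicate 3.

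Of 14 measured transcription factors, hormone receptors and signalling genes of steroidogenic cells, 4 were above the reference (28.6%, against 51.8% of all genes): CREB1, CREM, PRKACA and PRKAR1A, of the cyclic AMP pathway that most cells use. NR5A1, GATA4, GATA6 and the receptors LHCGR, FSHR and MC2R were below it on all arrays, and NR5A2 passed it on 5 of 6. GATA4 read 34.6, 52.3 and 42.4 on the control arrays and 23.6, 32.6 and 9.93 on the knockdown arrays, and was the list's gene of smallest p on the lower side (adjusted p = 0.744 in limma). CREB1 had a log2 fold change of 0.21 (SE 0.14; adjusted p = 0.837 in limma), or 0.09 without control replicate 3.

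Markers of gonadal, adrenal and placental cells were mostly below the reference. Of 16 measured markers of Leydig, Sertoli, granulosa, adrenal and placental cells, 1 was above it, SOX9, a factor of Sertoli cells that other tissues also use, at 516.6 to 857.2 intensity units. INSL3, a Leydig cell hormone, read above it on 5 of 6 arrays, from 27.7 on knockdown replicate 1 to 218.5, and was the other gene above it without that array. FOXL2, a granulosa cell factor, and INSL4, a placental hormone, were below it on all arrays. The list shares LHCGR, FSHR, MC2R, MRAP, HSD17B3, CYP11B1 and CYP11B2 with the lists above. Markers of fibroblasts, endothelium, leukocytes and muscle were above it for 4 of 18 genes, COL1A1, VWF, TEK and CD79A. CD79A is also in the silent reference and helped to set the level that it passed. COL1A2, COL3A1, CDH5, PTPRC, CD14 and CKM were below the reference on all arrays. VWF, an endothelial clotting protein, read 1182, 1129 and 1217 on the control arrays and 1863, 1530 and 1396 on the knockdown arrays, without overlap. The groups did not overlap, in either direction, for 3 of these 18 genes, against 2564 of all 19775. No gene of the 2 lists passed the test (smallest adjusted p = 0.754 and 0.675 in limma). Their part in the readings of the steroid genes was not tested.

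HSD17B4 also serves peroxisomal fatty acid oxidation, and SRD5A3 also serves dolichol synthesis. Of 20 measured genes of peroxisomal oxidation 12 were above the reference (60%, close to the 51.8% of all genes), among them ACOX2, PHYH and ABCD3. Of 21 measured genes of dolichol and lipid-linked sugar synthesis 20 were above it (95.2%), among them DPM1, ALG6 and ALG8. No gene of either list passed (smallest adjusted p = 0.766 and 0.745 in limma). In dolichol synthesis the smallest p on each side belonged to ALG3, a mannosyltransferase, at 0.37 (SE 0.15) on the log2 scale, and ALG14 at -0.24 (SE 0.14). In peroxisomal oxidation they belonged to ABCD4 at 0.29 (SE 0.13) and DECR2, which was above the reference on 5 arrays. The median log2 fold changes of these lists of other pathway genes lay between -0.10 and 0.02, and that of all genes was 0.003. The median of the 9 steroid synthesis genes by their brightest probe set was 0.13, but over all 21 of their probe sets it was -0.00. Of the 21, 10 lay above 0 and 11 below. These medians include genes below the reference, among them 5 of the 9 steroid synthesis genes.

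**Figure D4:**
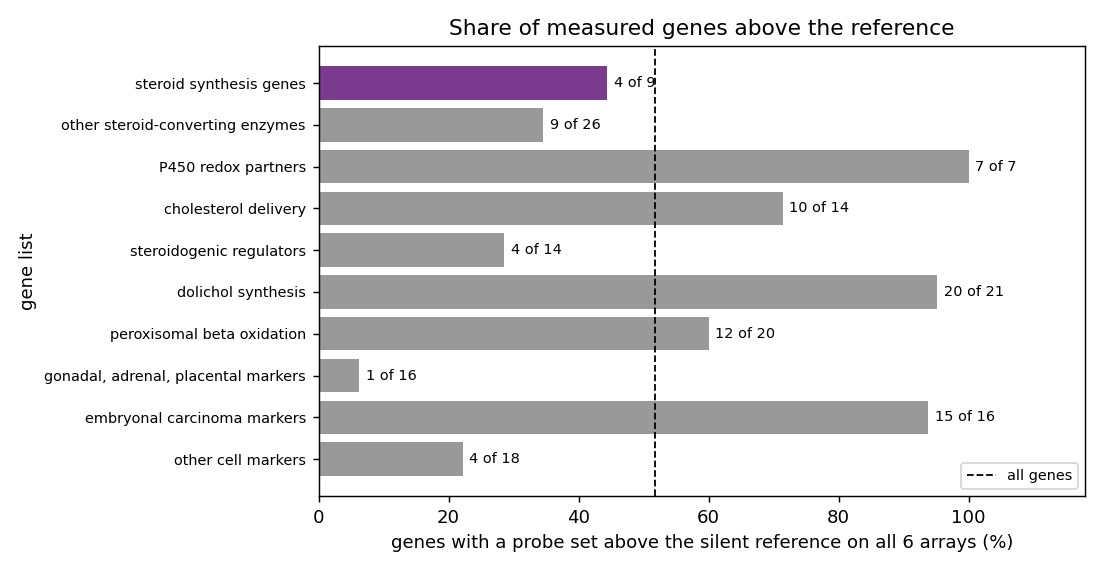
Share of the measured genes in each list with a probe set above the silent reference on all 6 arrays, with the counts beside the bars; the dashed line is the 51.8% of all genes. The steroid synthesis genes (4 of 9, 44.4%) lie close to the line. Below it lie the other steroid-converting enzymes (9 of 26) and the regulators (4 of 14). The gonadal, adrenal and placental markers (1 of 16) and the other cell markers (4 of 18) also lie below it. The redox partners and cofactor suppliers (7 of 7), dolichol synthesis (20 of 21) and embryonal carcinoma markers (15 of 16) lie above it. So do cholesterol delivery (10 of 14) and peroxisomal oxidation (12 of 20).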

How the data were processed

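Total RNA of 6 samples was hybridised to 1-colour 3' expression arrays. The authors deposited 1 linear intensity for each of 54675 probe sets. With 2% of values left out at each end, the mean was 500.07 on all 6 arrays, so the intensities had been scaled to 1 target. The submitters' processing notes name RMA with no version, which gives log2 values of equal distribution and does not describe these intensities; background correction and software: not given in the sources used here.

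Gene names came from the platform's annotation table, with symbols updated by gene identifier (99.87% matched). An offset of 50 was added before log2, and the groups were compared by limma 3.58.1 (lmFit and eBayes, in R 4.3.3) over 54613 probe sets, with Benjamini-Hochberg adjustment. The code was tested on simulated arrays. The steroid genes and the lists were chosen with earlier results of these data known. Fold changes are given only for probe sets above the silent reference, apart from VAMP7; medians and counts of signs cover dim probe sets too. List genes stand by their brightest probe set, and those named were the 3 brightest, the smallest p in each direction and, chosen after their values were seen, further genes named by their place relative to the reference. Alternatives covered the gene level, offsets of 1, 16 and 100, normalization, filters, eBayes options, array weights, the replicate block, the reference level and the omission of each array. The number of arrays limits the precision.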

Additional observations from a re-analysis of the deposited data

How the results depend on the processing

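No steroid probe set was called in any of the 17 alternatives; all 21 were tested in each but 2, the gene level, with 9, and the filter at the median probe set, with 6. VAMP7 stayed lower and past the threshold in all 17 (-4.09 to -3.42), and over all probe sets the call was VAMP7 alone except at an offset of 1, where 1 was higher and 2 were lower. The steroid genes above the reference numbered 4 in 13 of 14 alternatives and 1, HSD17B4, when the highest silent probe set set the level. Several of the 13 could not differ: leaving out arrays, using the control arrays alone and counting probe sets that name several genes. None of the other 15 probe sets passed the reference on any array, and no steroid gene had a probe set naming several genes. HSD17B4 turned to -0.03 with array median centring, and ran from -0.05 to 0.10 as arrays were left out in turn, below 0 without control replicate 3 or knockdown replicate 2 or 3. HSD17B1 ran from -0.26 to 0.04 as arrays were left out. STAR and the 3 SRD5A1 probe sets kept their sign, and as arrays were left out STAR ran from 0.04 (without control replicate 2) to 0.21 (without control replicate 1) and the dimmest SRD5A1 probe set from -0.22 (without knockdown replicate 2) to -0.04 (without control replicate 2). Without knockdown replicate 1 these were 0.07 and -0.05. Replicate numbers were taken from the titles, which do not say whether same-numbered arrays were paired. Deviations of same-numbered arrays showed little correlation (-0.01, 0.007 and -0.017), which does not settle how the samples were prepared. With the replicate block 0 of the 21 were called. Counts of list genes above the reference without knockdown replicate 1 were added after the data had been seen. They can only rise, and the share of all genes went from 51.8% to 53.1%. The gonadal, adrenal and placental markers went from 1 to 2, and the median of that list to 0.26 at an offset of 1.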
